A study of Saccharomyces cerevisiae with 21 samples.

Results

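Poly(A) RNA of nuclear extracts was compared with that of whole cells in 1 strain of budding yeast, the glucose-starved Nab2 IDR mutant. The members were taken by their titles: 3 nuclear extract libraries and 2 whole cell libraries, or 5 of the 21 libraries of the study. The strain carries NAB2 without codons 104 to 263, with a viral (SV40) nuclear localization signal and a yEGFP tag marked with HISMX. Its BY4742 background (MAT alpha, his3, leu2, lys2 and ura3 deletions) and the tagged NAB2 locus are shared by the starved interface mutant, which has a substitution at residue 450, and by the starved tagged wild type. All 3 strains were grown to mid-log phase with 2% glucose, washed 3 times and kept for 24 h without glucose. Nuclei came from Zymolyase spheroplasts that were broken by douncing and separated on sucrose, and RNA of both fractions was selected on oligo(dT) of 25 nt. The labels do not say whether replicates were separate cultures, so the spread behind the p-values may be technical. Whole cell and nuclear libraries carry separate series of library names, and spike-in sequences were counted in the nuclear ones alone, so the fraction and the library preparation cannot be told apart.

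Nab2 is an essential nuclear poly(A)-binding protein of yeast. Its zinc fingers bind adenosine-rich RNA, its N-terminal region contacts the export machinery at the nuclear pore, and an arginine- and glycine-rich (RGG) stretch serves its import into the nucleus. It limits poly(A) tail length, protects new transcripts in the nucleus and travels with them to the pore. During glucose starvation yeast shuts down ribosome production, and genes of respiration, gluconeogenesis and general stress protection are turned on.

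The deleted stretch of NAB2 (YGL122C, chrVII:278946-280523, minus strand) spans 160 codons, 480 of 1578 bases of the counted feature (30.42%), and holds 47 of its 61 glutamine codons. Its first 60 bases lie at chrVII:280155-280214 and its last 60 at chrVII:279735-279794, both read on the minus strand, and are shown because they bound what the mutant lacks; capitals mark glutamine codons (CAA or CAG).
NAB2, start of the deletion: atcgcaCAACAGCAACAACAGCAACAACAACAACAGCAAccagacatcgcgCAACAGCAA
NAB2, end of the deletion: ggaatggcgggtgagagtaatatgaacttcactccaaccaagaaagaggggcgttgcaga

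Features that were higher in nuclear extract tended to be rich in adenosine, as described further on. The 60-base window with the most A was found in each of the 12 largest rises and the 12 largest falls. It held 25 to 41 A in the rises and 22 to 32 A in the falls, so the ranges overlap. Shown are the windows of the largest rise and the largest fall, STL1 and HXT4, and, as extremes chosen after their values were seen, the 5 rises with the most A and 3 of the falls with the fewest. The windows run 5′ to 3′ on the coding strand, and capitals mark runs of 4 or more A. STL1 (window at chrIV:1509575-1509634) rose with 28 A in the window and HXT4 (chrVIII:288645-288704) fell with 29. MNN4 (chrXI:64238-64297), PXR1 (chrVII:1051117-1051176), KRI1 (chrXIV:54965-55024), TMA23 (chrXIII:804922-804981) and BUD27 (chrVI:92636-92695) rose, with 41, 40, 39, 38 and 38 A in the window. ADH2 (chrXIII:874268-874327), PIR3 (chrXI:144957-145016) and TDH1 (chrX:338447-338506) fell, with 24, 23 and 22 A. Sequences are from the RefSeq S288C genome, build R64.
STL1: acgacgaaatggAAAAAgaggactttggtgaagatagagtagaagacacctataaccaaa
HXT4: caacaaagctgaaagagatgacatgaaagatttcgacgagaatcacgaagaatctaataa
MNN4: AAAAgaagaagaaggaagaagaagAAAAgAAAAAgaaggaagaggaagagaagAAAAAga
PXR1: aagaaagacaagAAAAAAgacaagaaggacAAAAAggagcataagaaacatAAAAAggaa
KRI1: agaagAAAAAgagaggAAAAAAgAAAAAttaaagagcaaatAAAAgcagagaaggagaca
TMA23: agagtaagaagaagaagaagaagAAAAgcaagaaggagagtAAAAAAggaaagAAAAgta
BUD27: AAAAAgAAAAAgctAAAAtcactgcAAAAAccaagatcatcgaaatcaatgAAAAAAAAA
ADH2: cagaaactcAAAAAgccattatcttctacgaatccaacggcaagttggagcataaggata
PIR3: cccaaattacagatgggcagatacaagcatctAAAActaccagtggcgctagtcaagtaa
TDH1: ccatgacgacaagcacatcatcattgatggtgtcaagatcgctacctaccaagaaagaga

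The nuclear libraries held 19552521, 8719732 and 13482774 counts in yeast features (replicates 1 to 3), and the whole cell libraries 5248248 and 5323510. Levels are given as CPM, counts scaled to library size and composition, which compare a feature between libraries and not features with each other. The 3 nuclear libraries were not alike. Replicates 1 and 2 had a Spearman correlation of 0.989 with each other over 5944 features, and of 0.957 and 0.948 with replicate 3. Replicate 3 was nearest to nuclear interface mutant replicate 1 (0.988), while replicates 1 and 2 each had 0.988 with nuclear wild type replicate 1. With the whole cell libraries of their own strain, nuclear replicates 1, 2 and 3 had 0.952, 0.946 and 0.951 (whole cell replicate 1), and with whole cell wild type replicate 1 they had 0.942, 0.941 and 0.882. Of the other starved nuclear libraries, wild type replicate 3 (1079 counts) and interface replicate 3 (3981 counts) were too shallow and left out, so that 13 starved libraries entered the fit. The labels were kept as given, and each main result below is set beside its value without replicate 3 or without replicates 1 and 2.

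**Figure D1:**
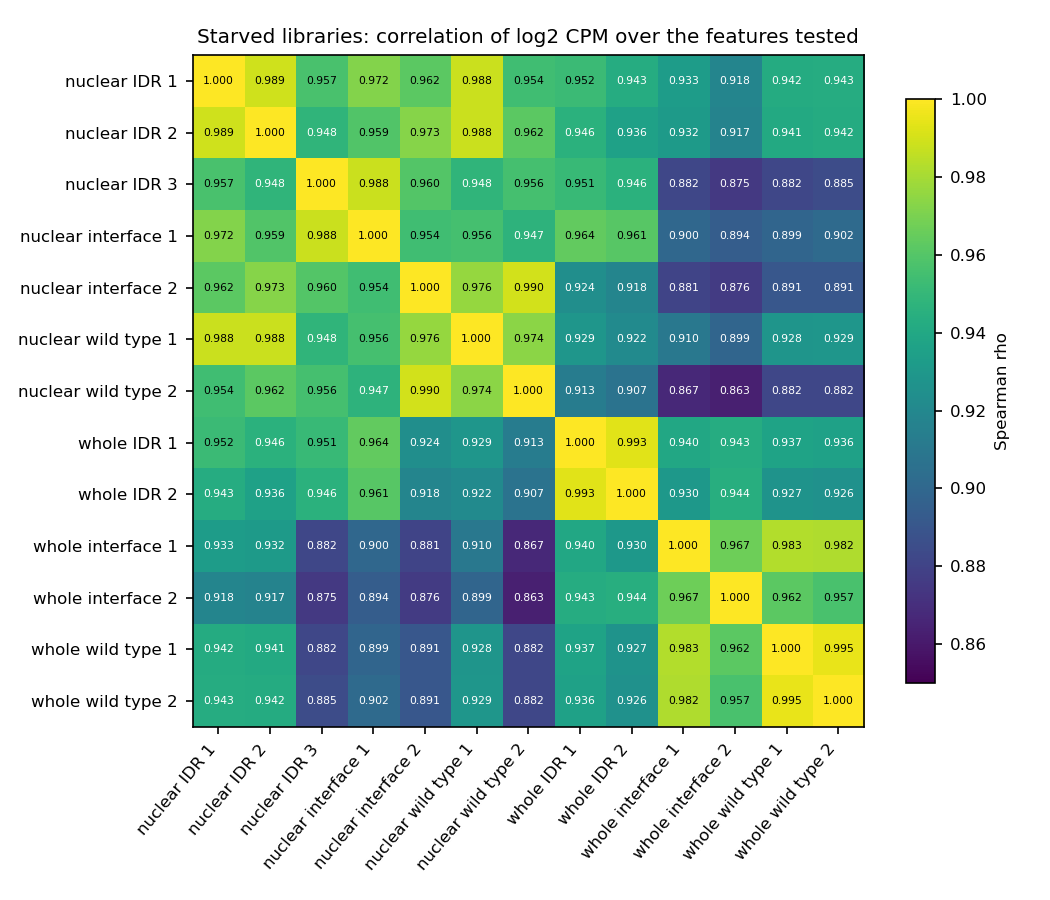
Spearman correlation of log2 CPM over 5944 features between the 13 starved libraries with enough depth, nuclear libraries before whole cell libraries and the IDR mutant first in each. Nuclear IDR replicates 1 and 2 stand with nuclear wild type replicate 1 (0.988 each), and nuclear IDR replicate 3 stands with nuclear interface replicate 1 (0.988).

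Marker genes of the strain were checked in each library. LEU2, LYS2 and URA3, which the parent lacks, had at most 1 count in each of the 5 libraries. HIS3, for which the parent carries a deletion allele, had 540, 160 and 165 counts in nuclear replicates 1, 2 and 3, and 43 and 87 in whole cells; how much of the feature that allele removes is not given in the labels. NAB2 stood at 251, 273 and 139 CPM in nuclear replicates 1, 2 and 3, against 146 and 141 CPM in whole cells, and did not pass the test (0.62 ± 0.37, adjusted p = 0.284). Replicates 1 and 2 were above both whole cell libraries and replicate 3 was just below them. NAB2 had 1993 of 16735287 yeast counts in nuclear interface replicate 1 and 2391 of 7232699 in replicate 2. Nuclear wild type replicates 1 and 2 had 9589 of 23138938 and 2740 of 6353585. Whole cells had 2042 of 5513154 and 1830 of 4815254 (wild type), and 1651 of 7040579 and 2572 of 7214702 (interface mutant). Relative to library totals, NAB2 was lowest among nuclear libraries in interface replicate 1 and IDR replicate 3. MFA2, a gene of the mating pheromone a-factor that an alpha strain keeps repressed, stood at 6.61, 3.37 and 58.3 CPM in nuclear replicates 1, 2 and 3 and at 14.1 and 16.5 CPM in whole cells. In the interface mutant it stood at 35.1 and 10.5 CPM in nuclear extract and 3.34 and 2.80 CPM in whole cells, and in wild type at 3.18 and 6.55 CPM in nuclear extract and 1.62 and 2.47 CPM in whole cells. Among whole cells MFA2 was thus highest in the IDR mutant, and among nuclear libraries in IDR replicate 3 and interface replicate 1. AGA2, another a-cell gene, stood at 1.48, 0.527 and 3.82 CPM in the nuclear IDR libraries, against 7.55 and 4.29 CPM in IDR whole cells. The other nuclear libraries had 4.31 and 0.398 CPM (interface mutant) and 0.536 and 0.557 CPM (wild type). The alpha-cell gene MF(ALPHA)1 had 6618, 2092 and 1772 counts in nuclear IDR replicates 1, 2 and 3, and 928 and 956 in IDR whole cells. STE3, also an alpha-cell gene, had 2655, 937 and 1139, and 632 and 593. The a-cell genes MFA1, STE2 and BAR1 had 23 to 260 counts in the same libraries. What part the identity of these libraries has in the results was not tested.

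Of 5944 features tested, 571 differed (9.61%), 275 higher in nuclear extract (4.63%) and 296 lower (4.98%), in a quasi-likelihood test of edgeR at an adjusted p under 0.05. All 571 had the 3 nuclear libraries on one side of both whole cell libraries, as had 1447 (24.3%, above) and 1508 (25.4%, below) of all features. Replicates 1 and 2 lay above both whole cell libraries with replicate 3 below both, or the reverse, for 953 features. The count of calls rested on few libraries. Without nuclear replicate 3 it was 1071 (18.1%), with 523 higher (8.82%) and 548 lower (9.24%), and 544 of these were among the 571. Without nuclear replicates 1 and 2 it was 109 (1.81%), with 70 higher (1.16%) and 39 lower (0.649%), and 66 of these were among the 571. DESeq2 called 1026 (17.3%), 503 higher (8.46%) and 523 lower (8.8%). It was 74 without nuclear replicate 1 alone and 206 without nuclear replicate 2 alone. It fell to 3 without whole cell replicate 1 and 2 without whole cell replicate 2, where 1 whole cell library was left and assumed to vary like the other groups. YOS1 and YOR192C-C were called in both of those fits and YGR035C in the first, YOR192C-C and YGR035C being named after their values were seen. With the 5 libraries fitted alone 401 features differed (6.83%), 255 higher (4.34%) and 146 lower (2.49%). The other strains share in the estimate of spread: the count was 262 and 259 without whole cell wild type replicates 1 and 2, and 879 and 878 without nuclear interface replicates 1 and 2. The 571 kept their direction without each of the 5 libraries in turn, without nuclear replicates 1 and 2 together and in DESeq2, as did the 570 of them tested with the 5 libraries alone. As each of the 571 had its fractions apart in all 5 libraries, its direction could hardly turn, and this is no support for the calls.

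The largest rise was that of STL1, a glycerol importer of the plasma membrane (chrIV:1508005-1509714, plus strand). It stood at 260.0, 303 and 234 CPM in nuclear extract, against 6.92 and 7.73 CPM in whole cells. All 3 nuclear libraries were far above both whole cell libraries, 36.2-fold on average (log2 fold change 5.18 ± 0.91, adjusted p = 0.0124). MNN4, a regulator of mannose phosphorylation on cell wall glycans (chrXI:63930-67466, minus strand), had 101, 134 and 137 CPM in nuclear extract, against 17.6 and 11.2 CPM in whole cells (3.11 ± 0.48, adjusted p = 0.0101). YOS1, needed for transport from the endoplasmic reticulum (ER) to the Golgi (chrV:307653-308123, plus strand), had 29.0, 24.8 and 29.2 CPM in nuclear extract, against 3.15 and 3.65 CPM in whole cells (3.02 ± 0.25, adjusted p = 0.000436). Neither gene's groups overlapped, which the rule for naming them required, and the nuclear replicates lay close to each other. YOS1 kept its call without any 1 of the 5 libraries, with log2 fold changes between 2.92 and 3.13.

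TMA23, RRP14, RRP15, PXR1 and KRI1, which code for nucleolar proteins or factors of ribosome assembly, rose as well. TMA23 had 52.2, 46.7 and 79.0 CPM in nuclear extract, against 9.02 and 6.66 CPM in whole cells (2.92 ± 0.34, adjusted p = 0.00371). RRP14 had 275, 256 and 229.6 CPM in nuclear extract and 54.1 and 34.1 CPM in whole cells (2.52 ± 0.45, adjusted p = 0.0128). RRP15 (2.13), PXR1 (2.00) and KRI1 (1.83) rose by less. In each of these genes all nuclear libraries exceeded both whole cell libraries, which the naming rule required. Replicate 3 was the lowest of the nuclear libraries in RRP14, RRP15, PXR1 and KRI1 and the highest in TMA23. BUD27, a prefoldin-like protein, had 164, 211 and 131 CPM in nuclear extract, against 32.7 and 25.3 CPM in whole cells (2.54 ± 0.53, adjusted p = 0.0191). The histone chaperone gene ASF1 (2.25 ± 0.38, adjusted p = 0.0108) and PHO4, the transcription factor of phosphate starvation (1.84 ± 0.24, adjusted p = 0.00751), were also among these 12. AAD15 (4.31 ± 0.68, adjusted p = 0.0101) belongs to a family of closely related subtelomeric genes whose reads the counting can split, so its level is uncertain.

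The largest fall was that of HXT4, a high-affinity hexose transporter (chrVIII:287081-288811, minus strand). It stood at 45.7, 27.4 and 74.1 CPM in nuclear extract, against 323 and 332 CPM in whole cells. All nuclear libraries were below both whole cell libraries, by 6.66-fold on average (-2.74 ± 0.41, adjusted p = 0.00923), and replicate 3 was the highest of them. ADH2, which oxidizes ethanol to acetaldehyde, had 399, 376 and 535 CPM in nuclear extract and 1197 and 1508 CPM in whole cells (-1.63 ± 0.28, adjusted p = 0.0124). TDH1, a glyceraldehyde-3-phosphate dehydrogenase, had 1600.0, 1718 and 2622 CPM in nuclear extract and 5793 and 6519 CPM in whole cells (-1.64 ± 0.29, adjusted p = 0.0128). These 3 genes have close paralogues, and reads shared with them could be split between the copies. The hydrophilin gene SIP18 (-2.15 ± 0.38, adjusted p = 0.0124), the cell wall gene PIR3 (-1.82 ± 0.41, adjusted p = 0.0234) and SOL4 of the pentose phosphate pathway (-1.65 ± 0.34, adjusted p = 0.0191) fell as well. GPG1, the upstream neighbour of NAB2 on the same strand, had 13.6, 9.49 and 22.8 CPM in nuclear extract and 44.9 and 54.5 CPM in whole cells (-1.69 ± 0.36, adjusted p = 0.0211). YRO2 (-2.16), DAL7 (-2.01), GIT1 (-1.92), JLP1 (-1.84) and HBN1 (-1.61) make up the 12. The rule for naming the 24 genes required groups apart, so leaving out 1 library could hardly turn a direction. None of the 24 genes but YOS1 kept its call without either whole cell library, and each kept its direction without any 1 of the 5 libraries.

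**Figure D2:**
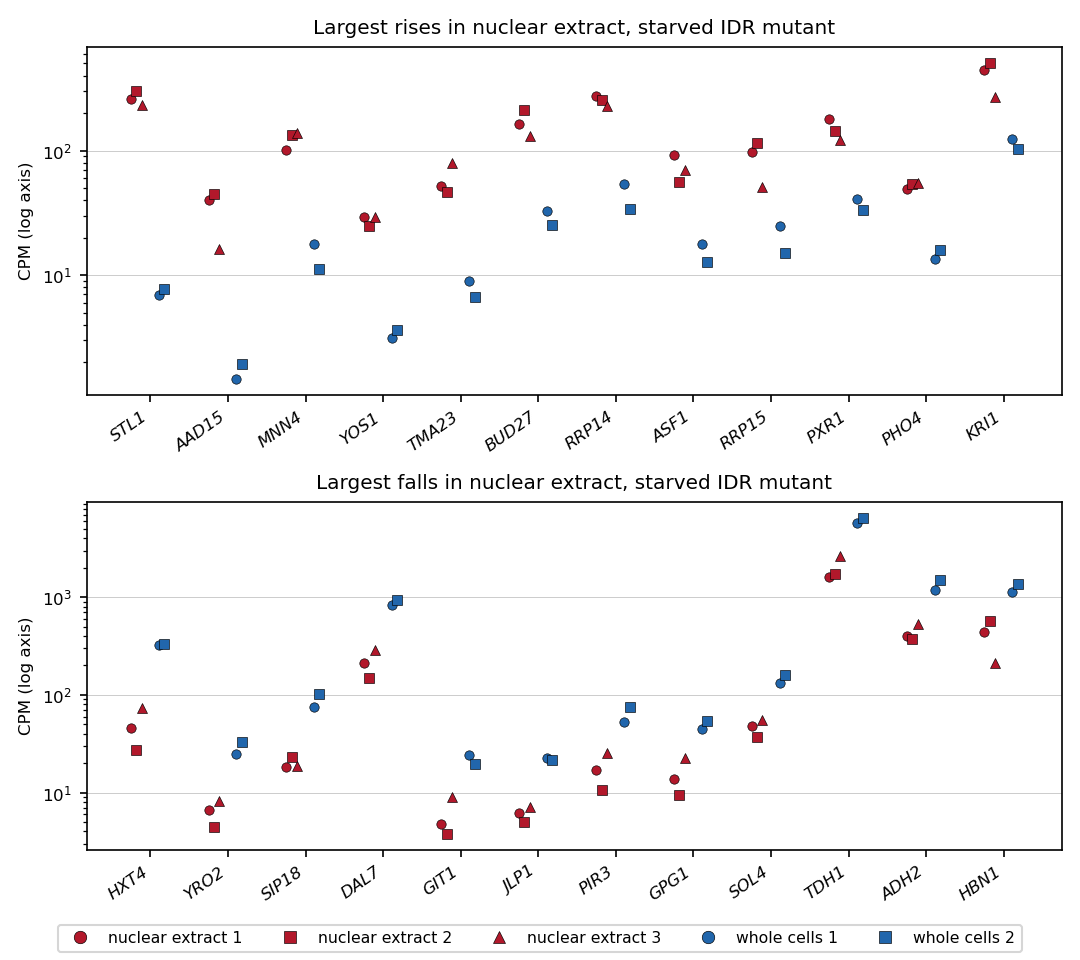
CPM (log axis) of the 12 largest rises (top) and the 12 largest falls (bottom) in each library of the starved IDR mutant, nuclear extract in red to the left of whole cells in blue, replicates by symbol. STL1 stands at 260.0, 303 and 234 CPM in nuclear extract and 6.92 and 7.73 CPM in whole cells, and the groups of none of the 24 genes overlap, which the rule for naming them required.

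Transcripts of the mitochondrial genome, whose mRNAs lack the poly(A) tails of nuclear-encoded ones, were lower in nuclear extract. They made up 0.0346, 0.0511 and 0.0120% of yeast counts in nuclear replicates 1, 2 and 3, against 0.120 and 0.107% in whole cells. Every nuclear library was below both whole cell libraries, and replicate 3 was the lowest (0.0326 ± 0.0196%, SD, n = 3, against 0.114 ± 0.00920%, n = 2). A two-sided exact permutation test gave p = 0.1, the smallest that 3 against 2 libraries allow. Of 7 members tested, 4 fell and 0 rose, where 4.98% of all features fell, with a median log2 fold change of -1.51 (all features 0.01). OLI1, subunit c of the ATP synthase, had 237, 352 and 86.2 CPM in nuclear extract, against 1090.2 and 1055 CPM in whole cells (-2.25 ± 0.54, adjusted p = 0.0287). COX1 (-1.51 ± 0.37, adjusted p = 0.0306) and COX3 (-1.89 ± 0.44, adjusted p = 0.0271) of cytochrome oxidase and VAR1 (-2.77 ± 0.66, adjusted p = 0.0287), a mitochondrial ribosomal protein, fell too, VAR1 at low levels (0.462, 1.16 and 0.162 CPM in nuclear extract and 4.82 and 2.79 CPM in whole cells). There were 4 falls without nuclear replicate 2 or 3, 3 without replicates 1 and 2, and 0 without nuclear replicate 1 or without either whole cell library. In these bulk samples a transcript carried by fewer cells and one with less RNA per cell cannot be told apart. Why these transcripts were lower in nuclear extract than in whole cells was not tested.

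Markers of other compartments that an extract of nuclei could hold did not move as one. For the ER, which is continuous with the nuclear envelope, 5 of 42 genes of translocation, folding and glycosylation fell (11.9%, all features 4.98%) and 0 rose (median -0.04). Their summed share of counts was nonetheless higher in every nuclear library (0.747, 0.721 and 0.718%, against 0.649 and 0.646% in whole cells; exact permutation p = 0.1). The medians of the ER list were 0.07, 0.08 and -0.28 in nuclear replicates 1, 2 and 3. Without nuclear replicate 3, 3 of the 42 rose (all features 8.82%). Among the genes that fell, OST4, a subunit of the oligosaccharyltransferase, had 6.43, 4.22 and 3.41 CPM in nuclear extract and 14.5 and 17.4 CPM in whole cells (-1.74 ± 0.26, adjusted p = 0.00923). Of 45 genes for GPI-anchored and secreted wall proteins, 6 fell (13.3%) and 0 rose, with a median of -0.25. Over all features 9.24% fell and 8.82% rose in the fit without nuclear replicate 3. The falls numbered 1, 2 and 5 (ER) and 1, 1 and 10 (wall) without nuclear replicates 1, 2 and 3 in turn, and 0 in each list without either whole cell library. For the cytosol, 2 of 21 genes of glycolysis and fermentation fell (9.52%), TDH1 and the hexokinase gene HXK2 (-0.75 ± 0.20, adjusted p = 0.0442). Their medians stood below whole cells in each nuclear replicate (-0.38, -0.45 and -0.72 on the log2 scale), replicate 3 lowest. Of 137 genes for cytosolic ribosomal proteins, 3 rose (2.19%) and 5 fell (3.65%), shares below those of all features (4.63% and 4.98%), and here the replicates parted, with medians of 0.20, 0.13 and -0.41. RPS20 had 384, 317 and 291 CPM in nuclear extract, against 776 and 792 CPM in whole cells (-1.25 ± 0.24, adjusted p = 0.016). RPL14B (0.69 ± 0.15, adjusted p = 0.0207) and RPL9B (0.73 ± 0.16, adjusted p = 0.0223) rose. The last 2 each belong to a pair of similar genes, whose reads the counting can split. Without nuclear replicates 1, 2 and 3 in turn 0, 0 and 20 ribosomal protein genes rose and 1, 2 and 4 fell, and glycolysis genes had 0, 1 and 3 falls. Without either whole cell library both lists had 0 calls.

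No gene of the export machinery that Nab2 belongs to passed the test, where 571 of 5944 features (9.61%) did. At that share lists of this size would hold few calls, so their absence says little about these genes. Of 35 genes of mRNA packaging, poly(A) binding and export 0 passed the test in edgeR, in DESeq2 and in each subset of the nuclear libraries, with a median of 0.25. Their summed share of counts was 0.790, 0.796 and 0.701% in the nuclear libraries, all above the 0.628 and 0.579% of whole cells (exact permutation p = 0.1). Over all features 1770 had an unadjusted p under 0.05. The smallest adjusted p of the list was that of HRB1, an mRNA-binding protein of the export pathway, with 184, 204 and 173 CPM in nuclear extract and 128 and 105 CPM in whole cells (0.68 ± 0.25, adjusted p = 0.0946). MEX67, the mRNA export receptor, had 181, 229 and 227 CPM in nuclear extract and 191 and 192 CPM in whole cells (0.15 ± 0.17, adjusted p = 0.59). PAB1, the main poly(A)-binding protein of the cytoplasm, had 585, 479.8 and 400.4 CPM in nuclear extract and 461 and 489 CPM in whole cells (0.04 ± 0.23, adjusted p = 0.925). The values of MEX67 and PAB1 overlapped between the groups. None of 32 nuclear pore genes and none of 22 cleavage and polyadenylation genes passed in edgeR. Without nuclear replicate 3, 1 of each list rose (all features 8.82%). DESeq2 called 1 rise and 1 fall among the cleavage and polyadenylation genes, and edgeR 1 rise with the 5 libraries alone. Their medians were 0.05 and 0.01.

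Of 23 genes of the nuclear exosome and RNA surveillance 4 rose (17.4%, all features 4.63%) and 0 fell. TRF5, a poly(A) polymerase of the TRAMP complex that marks nuclear RNA for decay, had 33.1, 30.1 and 30.8 CPM in nuclear extract and 13.8 and 13.5 CPM in whole cells (1.19 ± 0.24, adjusted p = 0.0168). AIR1, an RNA-binding subunit of the same complex, had 26.5, 20.6 and 15.3 CPM in nuclear extract and 7.76 and 6.87 CPM in whole cells (1.51 ± 0.35, adjusted p = 0.026). The exosome subunits MTR3 (0.96 ± 0.22, adjusted p = 0.026) and RRP45 (0.62 ± 0.16, adjusted p = 0.0344) were the others. In all 4 the groups were apart, as in every called feature, and replicate 3 was the lowest nuclear library in AIR1 and MTR3. Without nuclear replicate 3 the list had 7 rises (8.82% of all features rose in that fit), and without nuclear replicates 1 and 2 it had 0; without nuclear replicate 1 or either whole cell library there were 0, and without nuclear replicate 2 there was 1. In the cytoplasmic counterpart, 3 of 29 P-body and mRNA decay genes rose (LSM7, LSM2 and SKI2, 10.3%, all features 4.63%) and 0 fell, and with replicate 3 as the only nuclear library 1 rose. Of that list, 0, 0 and 3 rose without nuclear replicates 1, 2 and 3 in turn, and 0 without either whole cell library.

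Ribosome biogenesis genes, whose products act mostly in the nucleolus, had their highest medians in nuclear replicates 1 and 2. Of 65 tested 20 rose (30.8%, all features 4.63%) and 0 fell, with a median log2 fold change of 0.74. NOG2, a GTPase of large subunit maturation whose intron holds a small nucleolar RNA, had 130.0, 133 and 102 CPM in nuclear extract, against 53.3 and 52.2 CPM in whole cells (1.21 ± 0.17, adjusted p = 0.00923). UTP15 of the small subunit processome had 37.5, 37.7 and 35.2 CPM in nuclear extract, against 18.5 and 20.0 CPM in whole cells (0.94 ± 0.16, adjusted p = 0.0112). NOG1, another GTPase of the large subunit, had 60.2, 69.0 and 56.7 CPM in nuclear extract and 36.7 and 30.1 CPM in whole cells (0.89 ± 0.15, adjusted p = 0.0112). In these 3 genes replicate 3 was the lowest nuclear library and still above both whole cell libraries. Over the list the medians of replicates 1, 2 and 3 were 0.90, 0.91 and 0.33 on the log2 scale relative to whole cells. The list took 1.05, 1.02 and 0.538% of counts in the nuclear libraries, against 0.456 and 0.388% in whole cells (exact permutation p = 0.2). Over all features 8.82% rose in the fit without nuclear replicate 3. Without nuclear replicate 3 the list had 36 rises, without replicates 1 and 2 it had 1 (NOG2), without nuclear replicate 1 it had 4, without nuclear replicate 2 it had 6, and without either whole cell library 0.

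Of 32 Msn2/4-type general stress genes 6 fell (18.8%, all features 4.98%) and 0 rose. Their medians were -0.79, -0.93 and -0.02 in nuclear replicates 1, 2 and 3. GRE3, an aldose reductase, had 86.1, 64.8 and 76.6 CPM in nuclear extract and 179.9 and 194 CPM in whole cells (-1.30 ± 0.20, adjusted p = 0.00923). SOD2, the mitochondrial superoxide dismutase, had 508, 536 and 594 CPM in nuclear extract, against 1112 and 1283 CPM in whole cells (-1.13 ± 0.24, adjusted p = 0.0191). Both were well below whole cells in replicate 3 too. YGP1, DDR48, SIP18 and PIC2 were the other falls. Over all features 9.24% fell in the fit without nuclear replicate 3. Without nuclear replicate 3, 14 fell, and without replicates 1 and 2, 0 fell and 1 rose; without nuclear replicate 1, 2 or either whole cell library the falls were 1, 3 and 0.

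Gluconeogenesis, the glyoxylate cycle and the use of acetate had 5 falls (23.8%, all features 4.98%) and 0 rises among 21 genes. PCK1, the enzyme that commits carbon to gluconeogenesis, had 153, 139.8 and 311 CPM in nuclear extract and 437 and 501 CPM in whole cells (-1.22 ± 0.34, adjusted p = 0.0465). FBP1, fructose-1,6-bisphosphatase, had 21.3, 18.7 and 33.0 CPM in nuclear extract and 47.8 and 66.6 CPM in whole cells (-1.23 ± 0.26, adjusted p = 0.0189). In both, replicate 3 was the highest nuclear library and still below whole cells. ADH2, REG2 and CRC1 fell as well. The list's medians were -0.84, -0.98 and -0.36 in nuclear replicates 1, 2 and 3. Over all features 9.24% fell in the fit without nuclear replicate 3. There were 13 falls without nuclear replicate 3, 1 without nuclear replicate 2, and 0 without nuclear replicate 1, without both, or without either whole cell library.

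The nucleus-encoded respiratory chain and ATP synthase had 12 falls among 39 genes (30.8%, all features 4.98%) and 0 rises, with medians of -0.83, -0.66 and -0.31. SDH2 of succinate dehydrogenase had 50.7, 53.6 and 64.9 CPM in nuclear extract and 114 and 132 CPM in whole cells (-1.13 ± 0.18, adjusted p = 0.0103). COX7 had 41.7, 54.7 and 55.2 CPM in nuclear extract and 116 and 123 CPM in whole cells (-1.24 ± 0.22, adjusted p = 0.0128), and COX6 was like it (-0.99 ± 0.17, adjusted p = 0.0124). In these 3 genes the nuclear replicates lay close together, well below whole cells. Over all features 9.24% fell in the fit without nuclear replicate 3. The list had 20 falls without nuclear replicate 3, 1 without nuclear replicate 1, 5 without nuclear replicate 2, 0 falls and 1 rise without replicates 1 and 2, and 0 without either whole cell library. In smaller numbers, 8 of 59 amino acid biosynthesis genes fell (13.6%), led by LYS9 (-1.24 ± 0.19, adjusted p = 0.00923), LYS1 (-1.03 ± 0.19, adjusted p = 0.0136) and LYS12 (-0.84 ± 0.16, adjusted p = 0.0152) of lysine synthesis. LYS9 had 368, 378 and 363 CPM in nuclear extract, against 866 and 885 CPM in whole cells, so that nuclear replicates 1, 2 and 3 differed little. Of autophagy genes 3 of 31 fell (ATG8, ATG29 and ATG33, 9.68%) and of peroxisomal fatty acid oxidation 2 of 18 (IDP3 and DCI1, 11.1%). Near or below the 4.98% of all features were the proteasome with 2 of 34 (RPN9 and RPN12, 5.88%), trehalose and glycogen with 1 of 16 (PGM2, -1.45 ± 0.28, adjusted p = 0.016) and Hsf1-type chaperones with 1 of 26 (CPR6, -0.88 ± 0.22, adjusted p = 0.0343). Without nuclear replicates 1, 2 and 3 in turn the falls were 1, 4 and 16 for amino acid synthesis, 0, 0 and 5 for autophagy, 0, 1 and 2 for the proteasome, 0, 1 and 6 for fatty acid oxidation, 0, 1 and 5 for trehalose and glycogen and 0, 0 and 4 for chaperones, and 0 in each without either whole cell library.

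Core histone genes set replicate 3 apart from replicates 1 and 2. HHF2, a histone H4 gene, had 397, 263 and 1562 CPM in nuclear replicates 1, 2 and 3, against 424 and 454 CPM in whole cells (0.76 ± 0.62, adjusted p = 0.441). HTB1, a histone H2B gene, had 289, 268 and 785 CPM in nuclear extract and 303 and 296 CPM in whole cells (0.58 ± 0.39, adjusted p = 0.352). Replicates 1 and 2 were below whole cells in both genes and replicate 3 was well above. None of 10 histone genes passed the test, and the medians of replicates 1, 2 and 3 were -0.10, -0.18 and 0.86. The list took 0.287, 0.223 and 0.654% of counts in the nuclear libraries, against 0.282 and 0.274% in whole cells (exact permutation p = 0.8). With replicate 3 as the only nuclear library 1 histone gene rose, and with replicates 1 and 2 alone 0 passed. Over all 27 lists, the share of counts reached the smallest exact permutation p of 0.1 for 8, of which 5 were higher and 3 lower in nuclear extract.

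**Figure D3:**
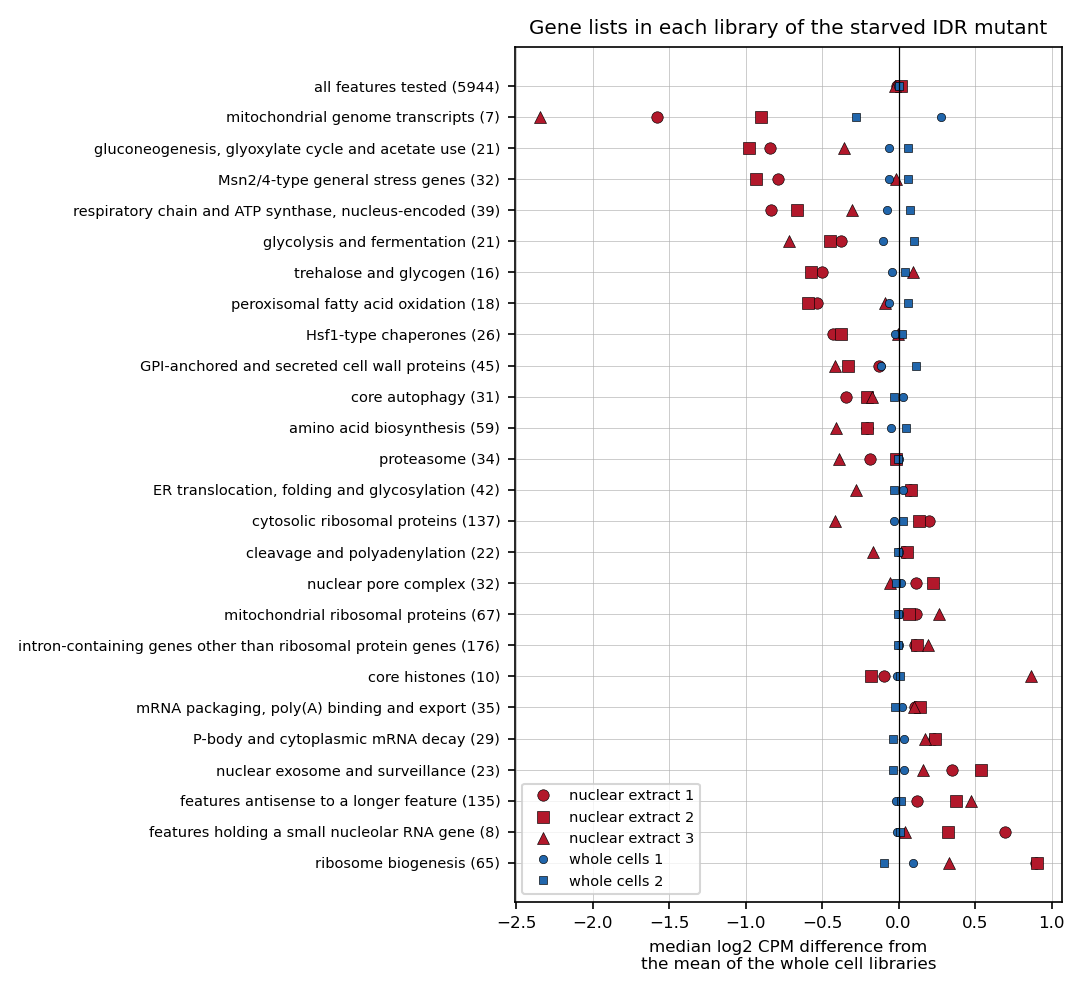
Median difference in log2 CPM from the mean of the whole cell libraries over the features of each list (number tested in brackets), for the 3 nuclear libraries (red) and both whole cell libraries (blue) of the starved IDR mutant. For mitochondrial genome transcripts all nuclear medians are low (-1.58, -0.90 and -2.35), while for Msn2/4-type stress genes (-0.79, -0.93 and -0.02) and core histones (-0.10, -0.18 and 0.86) nuclear replicate 3 parts from replicates 1 and 2.

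The adenosine content of a feature went with its nuclear level in the IDR mutant. Features were put in order of the share of A in their coding strand and split into 10 bins of about 594. In the bin with the most A (36.83 to 47.44%) the median log2 fold change was 0.35, with 55 rises (9.26%) and 10 falls (1.68%). In the bin with the most falls, from 30.46 to 31.57% A, it was -0.14, with 14 rises (2.36%) and 55 falls (9.26%). In the bin with the least A (12.03 to 27.06%) it was -0.04, with 19 rises (3.2%) and 27 falls (4.55%). That bin stood at -0.11, -0.18 and 0.05 in replicates 1, 2 and 3, so the medians did not go up steadily with A. The top bin stood above whole cells in each nuclear library, at 0.34, 0.39 and 0.28 in replicates 1, 2 and 3. Features that rose had a median of 34.31% A and features that fell 31.06%, where all tested had 32.52%. The Spearman correlation over 5937 features was 0.246, and 0.244, 0.291 and 0.136 for nuclear replicates 1, 2 and 3. It was 0.243 over the 5735 features that remained without ribosome biogenesis and cytosolic ribosomal protein genes. These correlations are across features of the same libraries, which are not independent replicates, and describe the libraries alone. For GC content the value was -0.04 and for length 0.09. RRP14 (43.8% A), RRP15 (43.3%), TMA23 (42.8%), KRI1 (41.0%) and PXR1 (40.6%) are among the features with the most A. The largest rise, STL1, has 29.0%, and the falling SIP18 39.6%, so single genes did not always follow.

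In the other strains the same correlation with A content was -0.058 (interface mutant) and -0.082 (wild type). Their medians in the top bin were 0.20 and 0.03, while the bin with the least A stood at -0.04 in the IDR mutant, 0.44 in the interface mutant and 0.40 in wild type. Each strain has its own whole cell libraries, and the difference between strains in this measure was not tested. The A-rich genes named above were higher in nuclear extract of the other strains too. Log2 fold changes in wild type and the interface mutant were 3.65 and 4.39 for RRP14 and 3.86 and 3.89 for PXR1. KRI1 had 2.19 and 2.38, TMA23 2.92 and 4.39, and RRP15 0.81 and 1.35, which did not pass the test in either strain.

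**Figure D4:**
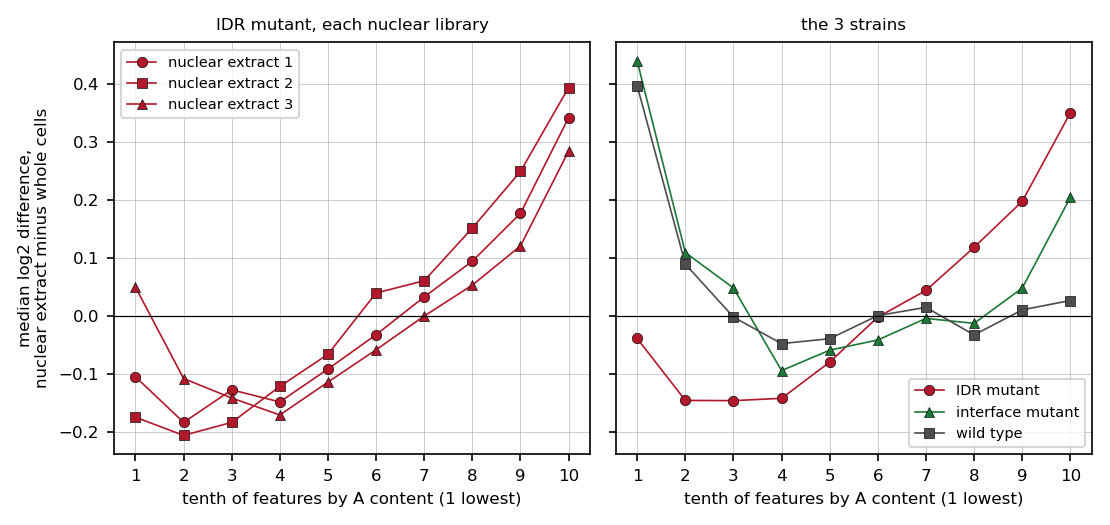
Median log2 difference between nuclear extract and whole cells by bin of features in order of A content, for each nuclear library of the IDR mutant (left) and for the IDR mutant, the interface mutant and wild type (right). In the IDR mutant the medians go up to 0.34, 0.39 and 0.28 in the top bin of nuclear replicates 1, 2 and 3, against 0.20 in the interface mutant and 0.03 in wild type.

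Transcripts with introns or on the antisense strand, which are processed or degraded in the nucleus, were examined as lists. Of 176 genes with an intron other than ribosomal protein genes, 14 rose (7.95%, all features 4.63%) and 4 fell (2.27%, all features 4.98%), with medians of 0.11, 0.12 and 0.19 in nuclear replicates 1, 2 and 3. Of 135 features antisense to a longer feature 4 rose (2.96%) and 2 fell (1.48%), both below the shares of all features, with medians of 0.12, 0.37 and 0.47. The clearest was YKL202W, an open reading frame that overlaps MNN4 on the opposite strand (chrXI:63821-64402, plus strand). It had 9.99, 9.70 and 12.01 CPM in nuclear extract, against 0.419 and 0.644 CPM in whole cells (4.28 ± 0.49, adjusted p = 0.00532). The MNN4 window shown above lies inside this overlap, and the features of both strands were higher in each nuclear library than in either whole cell library. The libraries were strand-specific and counted by strand. Of 67 genes for mitochondrial ribosomal proteins 3 rose (4.48%, near the share of all features) and 0 fell, MRPS16 (1.22 ± 0.33, adjusted p = 0.0425) with 118, 83.8 and 195 CPM in nuclear extract and 54.5 and 58.6 CPM in whole cells. Replicate 3 was the highest there. Over all features 8.82% rose in the fit without nuclear replicate 3. Rises without nuclear replicates 1, 2 and 3 in turn were 2, 3 and 17 (introns), 1, 1 and 7 (antisense) and 0, 2 and 2 (mitochondrial ribosome), and without either whole cell library YOS1, which has an intron, was the 1 call left. Among 8 features that hold a small nucleolar RNA gene NOG2 alone rose.

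Whether the difference between fractions was itself different in the IDR mutant was tested as an interaction in the same fit. Against wild type 83 features differed (1.4%), 18 with a higher (0.303%) and 65 with a lower (1.09%) nuclear to whole cell ratio in the IDR mutant. Between fractions 571 features differed in the IDR mutant, 2040 in the interface mutant (34.3%, 1030 higher and 1010 lower) and 1842 in wild type (31%, 1010 higher and 832 lower). SPS100, a spore wall gene, had 40.4, 54.1 and 49.1 CPM in nuclear extract and 23.7 and 26.6 CPM in whole cells of the IDR mutant, and 93.7 and 174 against 5.96 and 4.54 CPM in wild type. Its ratio was lower in the IDR mutant (-3.73 ± 0.46, adjusted p = 0.0245). HXT5, a hexose transporter of slowly growing cells, had 324, 336 and 468 against 201 and 248 CPM in the IDR mutant, and 449 and 829 against 52.7 and 46.8 CPM in wild type (-2.94 ± 0.52, adjusted p = 0.0387). In both genes the whole cells of the IDR mutant had more than those of wild type, and the nuclear levels overlapped or were lower. PHM7 (-3.04 ± 0.54, adjusted p = 0.0387), TKL2 (-3.05 ± 0.62, adjusted p = 0.0457), PDC6 (-3.81 ± 0.76, adjusted p = 0.0431) and IRC15 (-3.93 ± 0.82, adjusted p = 0.0458) had lower ratios too. TSC3, a regulator of sphingolipid synthesis, had 42.3, 48.8 and 58.4 against 46.4 and 38.0 CPM in the IDR mutant, and 45.4 and 41.5 against 123 and 117 CPM in wild type (1.70 ± 0.30, adjusted p = 0.0387). HRI1 had 81.7, 97.6 and 61.3 against 104 and 99.0 CPM in the IDR mutant, and 80.3 and 55.9 against 348 and 318 CPM in wild type (1.94 ± 0.33, adjusted p = 0.0387). In TSC3 and HRI1 the nuclear levels were near each other and the whole cell levels lower in the IDR mutant. ELF1, RPB10, YRB1 and VMA10 had higher ratios as well (1.62 to 1.74).

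By list, 8 of 21 gluconeogenesis genes and 6 of 32 Msn2/4-type genes had a ratio that was lower than in wild type, where 1.09% of all features did. The gluconeogenesis median was -0.67 in the IDR mutant and 1.33 in wild type, where 13 genes rose (all features 17%) and 1 fell (all features 14%), and that of Msn2/4-type genes -0.51 and 0.69. None of 65 ribosome biogenesis genes differed in the test, with medians of 0.74 and -0.02. Of all features 0.303% had a higher ratio than in wild type, so 0 of 65 is near that share. Mitochondrial genome transcripts were low in nuclear extract of each strain (-1.51 in the IDR mutant, -1.59 in the interface mutant and -1.90 in wild type). Of 7 tested 0 differed from wild type in this ratio, where 1.4% of all features did. STL1 differed neither from the interface mutant (-2.13 ± 1.14, adjusted p = 0.231) nor from wild type (-2.43 ± 1.19, adjusted p = 0.224) past the threshold, and a ratio not shown to differ is not shown to be alike. The count of 83 was 0 without nuclear IDR replicate 1 or 2, without either whole cell IDR library or without either whole cell wild type library. It was 1 without nuclear wild type replicate 2, 294 without nuclear wild type replicate 1, 226 and 187 without nuclear interface replicates 1 and 2, and 1134 without nuclear IDR replicate 3.

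Against the interface mutant 11 features differed (0.185%), 6 higher (0.101%) and 5 lower (0.0841%) in the IDR mutant. TSC3 was again higher (2.01 ± 0.30, adjusted p = 0.0361), with 40.5 and 31.1 CPM in nuclear extract and 141 and 104 CPM in whole cells of the interface mutant. JLP1, a sulfonate dioxygenase, had 6.15, 4.96 and 7.14 against 22.4 and 21.5 CPM in the IDR mutant, and 11.9 and 6.37 against 5.16 and 4.13 CPM in the interface mutant (-2.85 ± 0.45, adjusted p = 0.0361). Its nuclear libraries were below whole cells in the IDR mutant and above them in the interface mutant. SPS100 was lower (-2.72 ± 0.44, adjusted p = 0.0361), and POP5, MSH6, SPC2, MIC10 and LAF1 were higher by 1.36 to 1.67. The count was 1644 without nuclear IDR replicate 3, 195 without nuclear interface replicate 2 and 80 without whole cell interface replicate 1. It was 0 without nuclear IDR replicate 1 or 2, nuclear interface replicate 1, whole cell interface replicate 2, or any 1 of the whole cell IDR and wild type libraries.

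**Figure D5:**
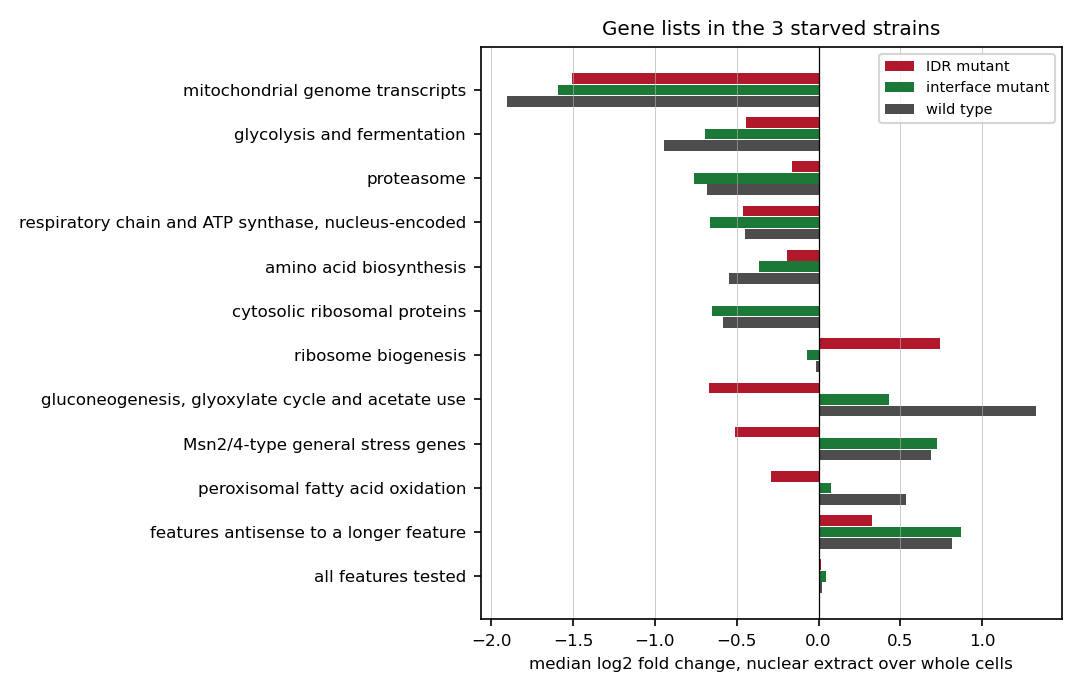
Median log2 fold change of nuclear extract over whole cells for 11 gene lists and all features in the IDR mutant (red), the interface mutant (green) and wild type (grey). Gluconeogenesis genes stand at -0.67 in the IDR mutant, 0.43 in the interface mutant and 1.33 in wild type, while mitochondrial genome transcripts are low in all 3 strains.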

How the data were processed

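Counts per gene feature were deposited per library; per the file headers they come from featureCounts 2.0.1 (reverse stranded, multimapped reads counted as fractions), and the submitters' processing notes name cutadapt and TopHat2, neither with a version here. The annotation of the nuclear libraries adds 6 spike-in sequences to the same 6600 yeast features; spikes were left out of library sizes. Multimapped reads split between copies make family members uncertain. From these counts, edgeR 4.0.16 (R 4.3.3) fitted a model of 6 group means over 13 starved libraries (TMM factors, filterByExpr with a minimum count of 10, quasi-likelihood F test, Benjamini-Hochberg, threshold 0.05). The SE is the log2 fold change divided by the root of F. Differences of single libraries use log2 CPM with a prior count of 2. Named features are the 12 largest rises and the 12 largest falls among called features with a standard gene name, groups apart and a mean of at least 20 CPM in the higher group, up to 3 per list with the smallest p, and 6 in each direction per interaction; other members named with values were chosen after these were seen. The members and gene lists were chosen with earlier results of these data known. List shares used exact permutation tests over libraries. Alternatives were DESeq2 1.42.0, other scaling, filters and sample sets, leaving out libraries, and a replicate block. Nuclear libraries held 8719732 to 19552521 counts and whole cell libraries 5248248 and 5323510. Counting error is therefore small for features at 20 CPM or more in both fractions. The naming rule asks for that level in the higher group alone. Some large rises rest on few whole cell counts, as in STL1 (6.92 and 7.73 CPM), YOS1 (3.15 and 3.65) and AAD15 (1.47 and 1.93). The procedure was tested on simulated data, in which replicates of a group shared a common mean per feature, unlike the nuclear libraries here. That test cannot show how far the calls depend on single libraries. Feature letters were read from the RefSeq S288C genome with Biopython 1.88. Replicate numbers were not shown to pair samples. Deviations of nuclear replicate 1 (from the mean of nuclear replicates 1 and 2) and whole cell replicate 1 had a correlation of -0.0972. This is a single value from the IDR mutant and cannot exclude pairing.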

Additional observations from a re-analysis of the deposited data

Results flagged for a closer look

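The nuclear to whole cell ratio differed between the IDR mutant and wild type for 83 features, and between the IDR mutant and the interface mutant for 11, by interaction tests of edgeR on log2 ratios. With the direction IDR mutant minus wild type, the tested differences were 1.94 for HRI1, 1.74 for ELF1, 1.71 for RPB10, 1.70 for TSC3, 1.67 for YRB1 and 1.62 for VMA10. On the lower side they were -3.93 for IRC15, -3.81 for PDC6, -3.73 for SPS100, -3.05 for TKL2, -3.04 for PHM7 and -2.94 for HXT5. With the direction IDR mutant minus interface mutant they were 2.01 for TSC3, 1.67 for POP5, 1.55 for MSH6, 1.55 for SPC2, 1.49 for MIC10 and 1.36 for LAF1, and -2.85 for JLP1 and -2.72 for SPS100. Counts fell on spike-in sequences, which no comparison used, at 0.611, 0.858 and 0.722% of yeast counts in nuclear IDR replicates 1, 2 and 3.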

How the results depend on the processing

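The counts of called features moved with the libraries and the tool. For nuclear extract against whole cells in the IDR mutant (571), leaving out 1 library gave 2 to 1071, nuclear replicates 1 and 2 together 109, DESeq2 1026 and a replicate block 1197. The 6 other settings, which changed scaling, filter or sample set, gave 401 to 578. For the ratio against wild type (83), leaving out 1 library gave 0 to 1134, nuclear replicates 1 and 2 together 0, all 15 starved libraries 159, DESeq2 642 and the block 1286. For the ratio against the interface mutant (11) these were 0 to 1644, 0, 270, 851 and 1765. Replicate numbers were not shown to pair samples, so the block is given as a count alone. Leaving out libraries of other strains was added after seeing the data.

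Some signs turned. NAB2 had a log2 fold change of -0.045 without nuclear replicates 1 and 2. Shares of counts (nuclear minus whole cell, percentage points) turned with nuclear replicate 3 alone for Hsf1-type chaperones (0.324), Msn2/4-type genes (0.00561), trehalose and glycogen (0.207), gluconeogenesis (0.451), respiratory chain (0.180), proteasome (-0.132), autophagy (-0.00658) and cytosolic ribosomal proteins (-1.08). Leaving out 1 library gave -0.638 to 0.233 for chaperones, -0.109 to 0.0499 for the respiratory chain, -0.0798 to 1.12 for ribosomal proteins, -0.00791 to 0.0142 for autophagy and -0.0231 to 0.192 for histones. The turns came without nuclear replicate 1 (chaperones, respiratory chain, ribosomal proteins), nuclear replicate 2 (respiratory chain, autophagy), nuclear replicate 3 (histones) and whole cell replicate 2 (autophagy). The causes were not tested. No list median changed sign with another scaling.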
